A study of Mus musculus with 34 samples.

Results

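The S100 genes encode small calcium-binding proteins, and 8 of them were followed here in mouse cortical astrocytes from the first postnatal weeks to old age: S100b, S100a1, S100a13, S100a16, S100a6, S100a10, S100a11 and S100a4. They were taken by symbol from the deposited expression table, where they are 8 of 18 S100 genes and 8 of 20613 genes with values, and all 8 passed the filter on low values. Cortices of male mice of wild-type genotype (WT) were the source, astrocytes were pulled out by a magnetic method, and their polyadenylated RNA was sequenced in 34 libraries at 9 ages. There were 5 libraries each at 3 and 6 months (3m, 6m), 4 each at postnatal days 7 and 14 (P7, P14) and at 18m, and 3 each at P21, P28, P60 and 12m. All groups were untreated as far as the labels say and differed only in age. The labels name neither the animal behind a library nor any pooling, so p-values below measure the spread between these libraries, part of which may be technical.

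S100 proteins carry a pair of EF-hand calcium-binding loops and mostly work as dimers. Binding calcium opens a hydrophobic surface, and the dimer then holds partner proteins such as annexins, cytoskeletal proteins, kinases and p53. S100b is the classic astrocyte member, also made by other glia and ependymal cells, and is released to act on the receptor RAGE. S100a10 is the exception that no longer binds calcium: it pairs constantly with annexin A2 and carries channels to the cell membrane. S100a4, S100a6 and S100a11 are linked to cell motility, proliferation and membrane repair, and S100a13 to the unconventional release of Fgf1.

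Of these 8 genes, 7 lie on mouse chromosome 3 in the GENCODE M21 annotation of GRCm38, and S100b lies alone at chr10:76253853-76261159 on the plus strand. The block from S100a1 to S100a6 spans 113148 bases and holds S100a1 (chr3:90511034-90514392, minus strand), S100a13 (chr3:90514435-90524581), S100a16 (chr3:90537254-90543151), S100a4 (chr3:90603771-90606045) and S100a6 (chr3:90612882-90624181), the last 4 on the plus strand. S100a11 (chr3:93520488-93526287) and S100a10 (chr3:93555080-93564643), both on the plus strand, form a separate block of 44156 bases. The predicted gene Gm42674 shares 302 of the 584 exonic bases of S100a4 on the same strand, so reads there could be assigned to either gene, and the level of S100a4 is uncertain to that extent.

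S100a1 and S100a13 are read in opposite directions from starts that lie 43 bases apart in GENCODE, with 104 bases between the starts in RefSeq. The 4 stretches below before transcription starts are shown, because the genes they precede include some that rose and some that fell from P7 to P60. All are RefSeq sequences of GRCm38.p6, written 5′ to 3′ on the plus strand, and 7 of the 8 genes matched an entry, with 8 windows in all. In S100b (chr10:76253586-76253835) capitals mark CCAAT boxes, 1 of them read on the other strand as ATTGG. In S100a11 (chr3:93520346-93520495) they mark AP-1 motifs (TGANTCA) and GC boxes (GGGCGG), in S100a4 (chr3:90603620-90603769) the TATA box (TATAAA), and between S100a1 and S100a13 (chr3:90514285-90514434) the bases that separate the RefSeq starts.
S100b: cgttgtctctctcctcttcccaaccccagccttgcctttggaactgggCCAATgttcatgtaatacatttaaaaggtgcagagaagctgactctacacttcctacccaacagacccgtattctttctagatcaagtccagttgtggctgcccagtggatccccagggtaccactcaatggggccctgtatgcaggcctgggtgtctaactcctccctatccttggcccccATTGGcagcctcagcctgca
S100a11: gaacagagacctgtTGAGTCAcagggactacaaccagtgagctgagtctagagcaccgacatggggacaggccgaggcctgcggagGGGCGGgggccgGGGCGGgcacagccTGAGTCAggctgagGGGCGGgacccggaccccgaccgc
S100a4: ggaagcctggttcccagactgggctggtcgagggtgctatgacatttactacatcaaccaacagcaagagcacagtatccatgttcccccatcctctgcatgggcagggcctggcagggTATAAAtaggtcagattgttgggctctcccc
S100a1 and S100a13: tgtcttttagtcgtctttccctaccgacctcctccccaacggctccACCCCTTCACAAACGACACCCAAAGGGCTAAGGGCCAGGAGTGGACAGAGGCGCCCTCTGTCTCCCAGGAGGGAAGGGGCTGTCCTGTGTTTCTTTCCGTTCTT
Both strands of each window, 250 bases before to 50 after the start, were searched for these 4 motifs, none of which overlapped another in a member. The window of S100a11 holds AP-1 motifs at -136 and -38 and GC boxes at -64, -52 and -24, counted from the start, and at least 2 AP-1 motifs occur in 0.46% of all 32851 mouse windows. S100a4 has its TATA box at -31, and TATAAA occurs in 13.6% of windows. S100b has CCAAT boxes at -202 and -20, and CCAAT occurs in 37.4%. An AP-1 motif also occurs in a window of S100a16 (at -192, with a GC box at -30) and a CCAAT box in that of S100a6 (at -228), against 7.81% of windows with AP-1 and 35.7% with a GC box. None of the 4 motifs is spelled in the windows of S100a1 or S100a13.

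Values are TPM, which correct for transcript length and sum to 1000000 per library, so that each is a share of all transcripts and levels of different genes can be compared. Read counts are not part of these values, so the depth is unknown. By how many genes were listed at 0, the libraries lay in 3 separate groups: 4109 to 4819 in P7, P14, 18m and 12m replicates 1 and 2, 2854 to 3523 in P21, P28 and P60, and 1155 to 1704 in 3m, 6m and 12m replicate 3. The 12 astrocyte markers were present in every library, with summed levels of 11740 to 14390 TPM at P7 and 13030 to 30750 later. Markers of other cells were present too. From P7 to P60, 8 of 10 oligodendrocyte, 6 of 9 neuron and 7 of 7 ependymal markers rose, whereas 6 of 8 fibroblast and 5 of 8 endothelial markers fell. In such bulk samples, fewer cells of a type and less RNA per cell cannot be told apart.

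S100a1 and S100a16 were the most abundant members at every age. Together they made up 54.4% to 71.8% of the summed level of the 8 genes in each library. The sum itself was 3694 ± 109 TPM (SD, n = 4) at P7, 3039 ± 525 (SD, n = 3) at P21 and 3949 ± 363 (SD, n = 4) at 18m. At P7 the order of mean levels was S100a16 (1215 TPM), S100a1 (891.7), S100a11 (510.7), S100a6 (502.9), S100a10 (213.1), S100a13 (184.7), S100b (91.2) and S100a4 (85.1). The ranges of S100a11 and S100a6, of S100a10 and S100a13, and of S100b and S100a4 overlapped there. By P60 the order was S100a1 (1531), S100a16 (975.3), S100a6 (407.4), S100b (304.6), S100a13 (281.9), S100a11 (201.7), S100a10 (123.1) and S100a4 (41.6), and only S100b and S100a13 overlapped among neighbours. S100a4 was the lowest of the 8 at all 9 ages.

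**Figure D1:**
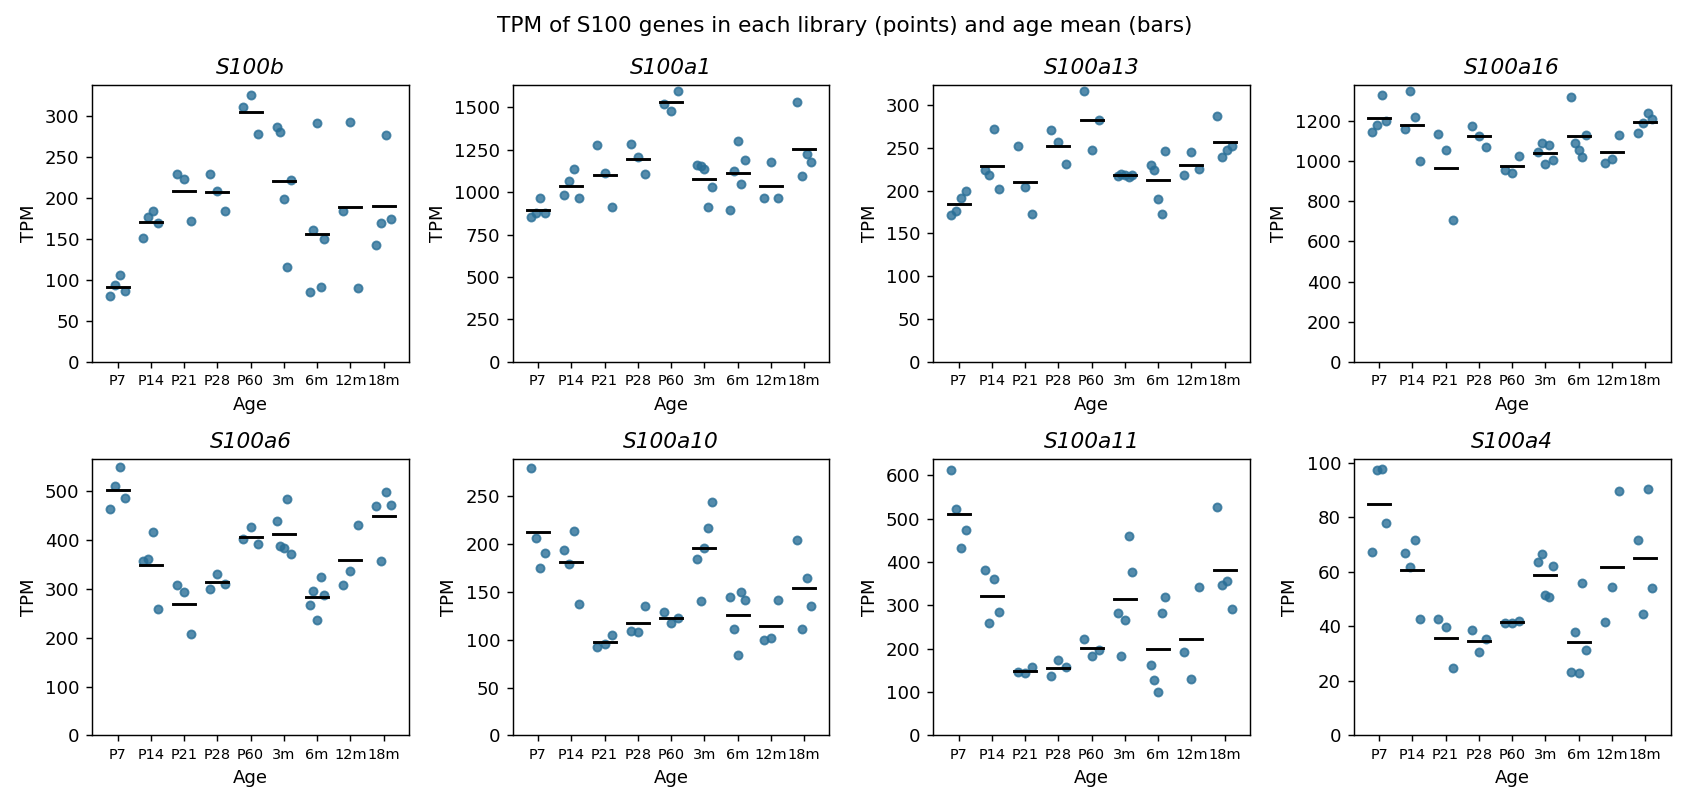
TPM of each of the 8 S100 genes (linear axes from 0) in each library (points) at 9 ages, with the mean of each age as a bar. S100b, S100a1 and S100a13 are lowest at P7 and highest at P60, whereas S100a11 and S100a4 are highest at P7, and S100b spreads widely from 3m onwards.

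Postnatal development was read from P60 against P7. P7 lies in the range of 4109 to 4819 genes listed at 0 and P60 in that of 2854 to 3523. Age and that difference cannot be told apart within this comparison. With limma on log2(TPM + 1), 7 of the 8 genes were called at an adjusted p under 0.05, against 52.8% of all 14590 genes tested. S100b, S100a1 and S100a13 rose (19.5% of all genes rose), and S100a16, S100a10, S100a11 and S100a4 fell (33.3% of all genes fell). The P7 and P60 ranges of all 8 genes did not overlap, S100a6 included. The share of all genes without overlap was not counted, here or in the comparisons below. The median log2 fold change was -0.31 over the 8 genes and -0.15 over all genes tested. Median-of-ratios rescaling of the libraries moves the latter to 0.007, and that of 18m vs P7 from -0.20 to 0.027.

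S100b was 79.6, 93.4, 105.5 and 86.2 TPM in the 4 libraries of P7 and 310.6, 325.5 and 277.7 TPM in the 3 of P60. The lowest P60 library was 2.63 times the highest P7 library. The means, 91.2 ± 11.1 (SD, n = 4) and 304.6 ± 24.5 TPM (SD, n = 3), differed 3.34-fold (log2 fold change 1.73 ± 0.34 SE, limma adjusted p = 0.00034). The intermediate ages lay between: 151.3 to 183.7 TPM at P14, 172.3 to 228.9 at P21 and 183.9 to 229.4 at P28. The astrocyte markers summed to 11740 to 14390 TPM at P7 and to 24210 to 25270 at P60. Of these 12 markers, 6 rose and 2 fell. Markers of some other cell types moved in the direction of S100b as well. Oligodendrocyte markers summed to 254.5 to 399.4 TPM at P7, with Mobp at 0 in all 4 libraries, and to 1354 to 2484 at P60. Ependymal markers ran from 259.9 to 404.4 TPM and then 973.7 to 2249, and neuron markers from 35.1 to 54.3 and then 294.5 to 587.5. With the neuron and oligodendrocyte list means as covariates, the S100b log2 fold change was 0.30 (limma adjusted p = 0.432), and with endothelial and fibroblast means it was 0.80 (adjusted p = 0.119). The neuron and oligodendrocyte sums did not overlap between P7 and P60, so that fit draws on the other ages and on the spread within ages.

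S100a1, which is best known as a regulator of the ryanodine receptor, was 852.2, 875.2, 965.5 and 874 TPM at P7 and 1522, 1477 and 1595 TPM at P60. S100a13 was 171.3, 175.9, 191.7 and 199.8 TPM at P7 and 316.1, 246.8 and 282.8 TPM at P60. For both genes every P60 library was above every P7 library. S100a1 was 1.72-fold higher at P60 (0.78 ± 0.12 SE as the log2 fold change, limma adjusted p = 4.46e-05) and S100a13 1.53-fold higher (0.60 ± 0.12 SE, adjusted p = 0.000318). Both calls held with either pair of marker lists as covariates and under every other alternative tried, those without single libraries included. The ratio of S100a1 to S100a13, the pair with facing starts, varied little: it averaged 4.84 ± 0.31 (SD, n = 4) at P7, 5.48 ± 0.60 (SD, n = 3) at P60 and 4.88 ± 0.33 (SD, n = 4) at 18m, with the widest spread at 6m (3.89 to 6.87).

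S100a16, a widely expressed member, had the smallest spread of age means on the log2 scale (SD 0.13). It was 1144, 1183, 1329 and 1202 TPM at P7 and 957.5, 940.9 and 1028 TPM at P60, without overlap (1.25-fold lower at P60, log2 fold change -0.32 ± 0.12 SE, limma adjusted p = 0.0234). This call was lost when P7 replicate 3 (adjusted p = 0.0694), P60 replicate 1 (0.0659) or P60 replicate 2 (0.0738) was left out. It was also lost after median-of-ratios rescaling of the libraries, where the log2 fold change was -0.14 (adjusted p = 0.473).

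S100a11, an annexin A1 and A6 partner in membrane repair, fell most of the 8. It was 613, 521.5, 433.4 and 474.9 TPM at P7 and 222.9, 183.8 and 198.3 TPM at P60, so that the lowest P7 library was well above the highest P60 library. Its mean was 2.53-fold lower at P60 (log2 fold change -1.33 ± 0.32 SE, limma adjusted p = 0.0017). S100a4, known from motile and mesenchymal cells and from white matter astrocytes, was 67.3, 97.4, 97.8 and 77.9 TPM at P7 and 41.2, 41.3 and 42.2 TPM at P60. The 3 P60 libraries lay close together and below all P7 libraries (2.05-fold lower, log2 fold change -1.0 ± 0.26 SE, adjusted p = 0.00304).

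S100a10, the annexin A2 partner, was 279.6, 206.6, 175.4 and 190.8 TPM at P7 and 129.3, 117.4 and 122.6 TPM at P60. The groups did not overlap, and the mean was 1.73-fold lower at P60 (log2 fold change -0.77 ± 0.20 SE, limma adjusted p = 0.00318). S100a6, or calcyclin, was 464.8, 510.9, 550 and 486 TPM at P7 and 402, 427.9 and 392.2 TPM at P60. It also did not overlap but missed the threshold (log2 fold change -0.30 ± 0.15 SE, adjusted p = 0.0821).

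The fibroblast markers ran from 587 to 992.6 TPM at P7 and from 252.1 to 320 at P60, and the endothelial markers from 1244 to 1727 and from 910.8 to 1494. With the means of these lists as covariates, the log2 fold changes were -0.25 for S100a11 (limma adjusted p = 0.5), -0.10 for S100a10 (0.738) and -0.58 for S100a4 (0.21). With the neuron and oligodendrocyte means they were -0.14 for S100a11 (0.792), -0.11 for S100a10 (0.78) and -0.56 for S100a4 (0.276). No sign changed, and 2 of the 8 genes, S100a1 and S100a13, remained called in each of the fits with covariates. Of all 14590 genes tested, 7697 were called at P60 vs P7 without covariates. With neuron and oligodendrocyte means 3492 were called, and with endothelial and fibroblast means 3548. Calls thus became fewer over the whole table too, and the drop was not particular to the S100 genes.

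The oldest age was compared with the youngest, because P7 and 18m lie in the same range of the number of genes listed at 0. S100b, S100a1 and S100a13 were higher at 18m and no member was lower, 3 of 8 called against 29.6% of all genes (4.67% higher, 24.9% lower). S100b was 142.9, 169.1, 276.6 and 173.7 TPM at 18m, all 4 above the highest P7 library (105.5). Its mean was 2.09-fold that of P7 (log2 fold change 1.02 ± 0.32 SE, limma adjusted p = 0.0175). Without 18m replicate 3, the highest, it was 0.82 (adjusted p = 0.0597), and with neuron and oligodendrocyte means as covariates 0.44 (adjusted p = 0.0721). With endothelial and fibroblast means it was 0.46 (adjusted p = 0.318). At 18m oligodendrocyte markers summed to 211.6 to 1487 TPM, a range that takes in that of P7, and 3 of 10 were higher than at P7, beside 4 of 7 ependymal markers.

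S100a1 was 1532, 1097, 1224 and 1176 TPM at 18m and S100a13 was 287.5, 239.3, 247.5 and 251.8 TPM, again all above the P7 libraries. The rise was 1.41-fold for S100a1 (0.49 ± 0.11 SE as the log2 fold change, limma adjusted p = 0.00251) and 1.39-fold for S100a13 (0.47 ± 0.11 SE, adjusted p = 0.00236). S100a1 was not called with endothelial and fibroblast means as covariates (0.35, adjusted p = 0.0648). S100a10 was 204.4, 111.7, 164.4 and 135.6 TPM at 18m and overlapped with P7 (log2 fold change -0.48 ± 0.19 SE, adjusted p = 0.0543). It was called lower when P7 replicate 3 (adjusted p = 0.044) or 18m replicate 1 (0.0231) was left out, and when the fit held the count of genes at 0 as a covariate (-0.53, adjusted p = 0.032). S100a16, S100a6, S100a11 and S100a4 had log2 fold changes between -0.45 and -0.02, none called.

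**Figure D2:**
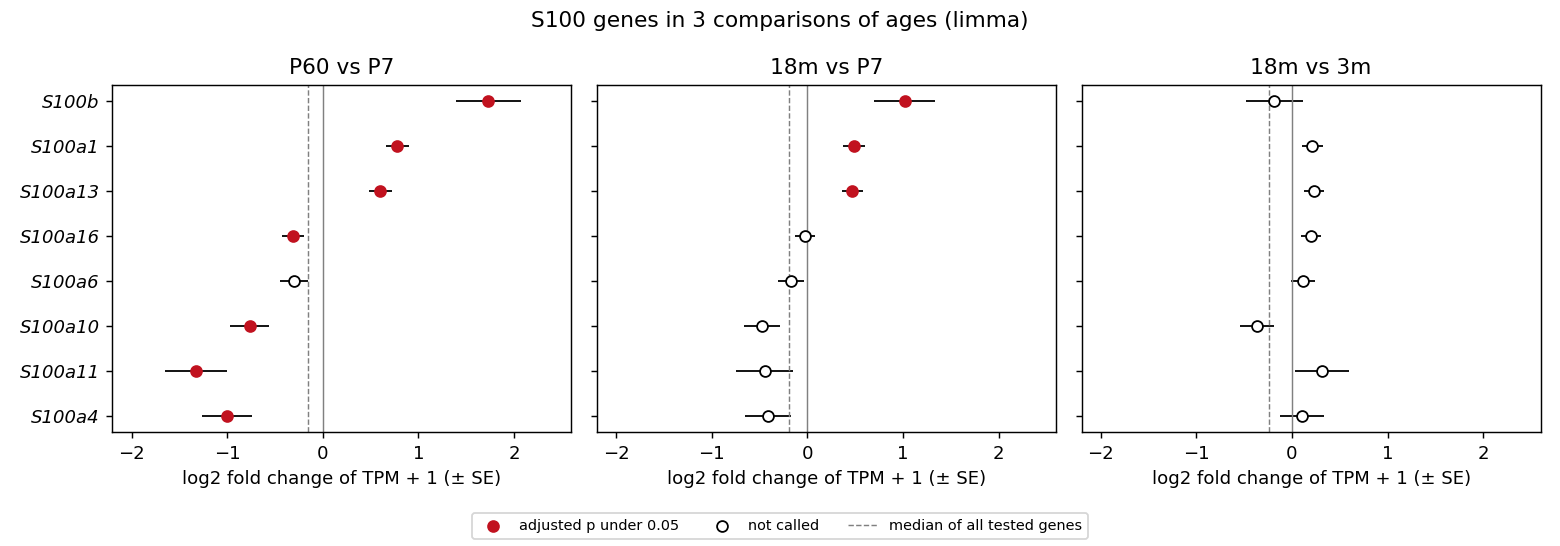
Log2 fold changes of TPM + 1 (± SE, limma) of the 8 S100 genes in 3 comparisons of ages, filled where the adjusted p was under 0.05, with the median of all tested genes as a dashed line. S100b, S100a1 and S100a13 lie above 0 in P60 vs P7 and 18m vs P7, and no gene is called in 18m vs 3m.

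Aging in adults was read from 18m against 3m, where 0 of the 8 genes were called by limma, against 37.5% of all genes, nearly all of those lower (33.4% lower, 4.16% higher). At an unadjusted p under 0.05, a threshold not counted over all genes, there was 1, S100a13 (log2 fold change 0.23 ± 0.11 SE, limma adjusted p = 0.0791). S100a13 was even at 3m, at 217.1, 219.7, 217.6, 216 and 218.1 TPM, and all 4 libraries of 18m lay above these. S100a16 did not overlap either: it ran from 986.2 to 1093 TPM at 3m and from 1140 to 1242 at 18m (0.20 ± 0.10 SE, adjusted p = 0.122). The other 6 genes overlapped, among them S100b, at 286.4, 280.1, 198.8, 115.5 and 221.9 TPM at 3m (-0.19 ± 0.30 SE, adjusted p = 0.651), a range that takes in all 4 libraries of 18m.

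The 18m vs 3m comparison crosses the lowest and the highest ranges of genes listed at 0, and the median log2 fold change of all genes was -0.24. Median-of-ratios rescaling moves that median to -0.02. After it, 4 of the 8 genes were called, all higher: S100a1 (0.47, limma adjusted p = 0.0246), S100a13 (0.48, 0.019), S100a16 (0.45, 0.0114) and S100a6 (0.37, 0.0446). Over all genes, 5312 were called after it, 2562 of them higher. The share of called genes that were higher went from 11.1% to 48.2% over the whole table. With 6m in place of 3m, S100a6 (0.66, adjusted p = 0.00216), S100a11 (1.04, 0.0139) and S100a4 (0.93, 0.00886) were higher at 18m. S100a10, at -0.36 ± 0.18 SE (limma adjusted p = 0.11) with all libraries, was called lower without 3m replicate 2 (-0.48, adjusted p = 0.0415) or 18m replicate 1 (-0.51, adjusted p = 0.0455). It was also called lower with neuron and oligodendrocyte means as covariates (-0.60, adjusted p = 0.0302).

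All 8 genes changed over the 9 ages by the limma F test, against 63.6% of all genes. The adjusted p ran from 3.44e-05 for S100a6 to 0.0493 for S100a16, and 8 of the 9 alternatives put S100a16 above 0.05. S100a6, S100a10, S100a11, S100a4, S100a1 and S100a13 kept the call under all of them, and S100b lost it only with neuron and oligodendrocyte means as covariates (adjusted p = 0.0815).

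Between neighbouring ages, 9 of 64 limma tests passed, 1 higher and 8 lower. From P7 to P14, S100a6 alone was called, with 4 libraries of 356.6, 361.4, 417.1 and 259.6 TPM at P14, all below P7 (log2 fold change -0.55 ± 0.14 SE, adjusted p = 0.0126), where 11.8% of all genes were called and 8.57% were lower. Without P14 replicate 4, the lowest, it was -0.41 (adjusted p = 0.064). The S100a6 call was also lost after median-of-ratios rescaling (-0.42, limma adjusted p = 0.0702). With neuron and oligodendrocyte means as covariates S100a6 was -0.37 (adjusted p = 0.0859), and with endothelial and fibroblast means -0.40 (adjusted p = 0.137). S100b lay above P7 in all 4 libraries of P14 but missed the threshold (0.90 ± 0.32 SE, limma adjusted p = 0.06), and passed it in a fit of only these ages (adjusted p = 0.000191). From P14 to P21, S100a10 and S100a11 fell (13.2% of all genes called, 7.59% lower). This step too goes from the range of 4109 to 4819 genes listed at 0 to that of 2854 to 3523. S100a10 went from 193.9, 179.4, 213.7 and 137.7 TPM to 92, 95.5 and 104.8 TPM (-0.87 ± 0.20 SE, adjusted p = 0.00629), and S100a11 from 381.3, 259.3, 361.4 and 284.7 TPM to 146.2, 143.3 and 158.7 TPM (-1.08 ± 0.32 SE, adjusted p = 0.0275). Neither gene overlapped between the ages, and P21 held the lowest mean of both. S100a11 kept no call without P14 replicate 1 or 3 or any of the 3 P21 libraries (adjusted p between 0.0605 and 0.1). The same held after quantile normalization (-0.85, limma adjusted p = 0.0757) and with neuron and oligodendrocyte means as covariates (-0.53, 0.191).

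From P60 to 3m, 3 of the 8 genes were called, against 10.2% of all genes (8.26% higher, 1.93% lower). This step goes from libraries with 2854 to 3523 genes listed at 0 to libraries with 1155 to 1704. Age and that difference cannot be told apart here. S100a1 fell to 1162, 1155, 1134, 914.9 and 1033 TPM at 3m, all below P60 (-0.51 ± 0.12 SE as the log2 fold change, limma adjusted p = 0.00576), and S100a13 fell with it (-0.36 ± 0.11 SE, adjusted p = 0.038). S100a10 rose to 184.2, 140.7, 196.4, 216.8 and 244.3 TPM, all above P60 (0.65 ± 0.20 SE, adjusted p = 0.0314). The S100a1 call was lost in 2 of 18 alternatives, with endothelial and fibroblast means as covariates (-0.35, adjusted p = 0.163) and with a term for genes at 0 (-0.39, adjusted p = 0.172). The S100a13 and S100a10 calls were each lost in 11 of 18 alternatives, for example S100a13 without P60 replicate 1 (-0.28, adjusted p = 0.216) and S100a10 without P60 replicate 2 (0.61, adjusted p = 0.113). S100a13 was also lost without P60 replicate 3 or any of the 5 libraries of 3m (adjusted p between 0.0553 and 0.109). S100a10 was also lost without P60 replicate 1 or 3 or 3m replicate 3, 4 or 5 (between 0.0501 and 0.0931). With a term for genes at 0, S100a13 was -0.311 (limma adjusted p = 0.28) and S100a10 0.415 (adjusted p = 0.41), neither called.

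From 3m to 6m, S100a6, S100a10 and S100a4 fell, 3 of 8 against 9.32% of all genes (7.25% lower). S100a6 went from 438.4, 387.7, 383.9, 484.8 and 371.1 TPM to 268, 297, 236.7, 324.7 and 288.1 TPM without overlap (log2 fold change -0.55 ± 0.12 SE, limma adjusted p = 0.00722). S100a10 (-0.64 ± 0.17 SE, adjusted p = 0.0183) and S100a4 (-0.83 ± 0.22 SE, adjusted p = 0.019) overlapped, with S100a4 at 63.7, 66.5, 51.6, 50.8 and 62 TPM at 3m and 23.4, 38, 23, 56 and 31.5 TPM at 6m. In a fit of only the 3m and 6m libraries none of the 3 passed (adjusted p = 0.0705, 0.111 and 0.0959). S100a10 was also lost without 3m replicate 5 (-0.56, adjusted p = 0.0638) and S100a4 without 6m replicate 1 (-0.72, adjusted p = 0.0596). With endothelial and fibroblast means as covariates neither S100a10 (-0.41, limma adjusted p = 0.0521) nor S100a4 (-0.68, 0.0566) was called.

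The other steps called none of the 8 genes: P28 vs P21 (0.0206% of all genes called), P60 vs P28 (1.12%), 12m vs 6m (0.0548%) and 18m vs 12m (20.2%). Those shares are at an adjusted p under 0.05, and shares at an unadjusted p under 0.05 were not counted. At an unadjusted limma p under 0.05 there were 1, 2, 2 and 3 of 8 genes in these steps. The largest log2 fold change was that of S100a11 from 12m to 18m, from 192.3, 130.7 and 343.6 TPM to 527.4, 347.6, 356.9 and 290.8 TPM (0.85 ± 0.32 SE, adjusted p = 0.0605). It passed without 12m replicate 3, the highest at that age (1.22, adjusted p = 0.0258). S100a4 from 6m to 12m came close to it (0.84 ± 0.25 SE, limma adjusted p = 0.222). By ratio of means S100a4 was larger, 1.80 against 1.71, and its unadjusted limma p was smaller, 0.00246 against 0.0135.

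By their age means of log2(TPM + 1), 7 of the 8 genes are described here as 2 sets. S100b, S100a1 and S100a13 were lowest at P7 and highest at P60, and their means correlated at r = 0.80 to 0.90 over the 9 ages. S100a6, S100a10, S100a11 and S100a4 were highest at P7, lower at P21 and P28 and higher again at 3m than at 6m, and correlated at 0.73 to 0.92. Between the sets r ran from -0.55 to 0.04. S100a16 was put in neither: its r was 0.42 to 0.68 with the second set and -0.68 to -0.21 with the other. The points of these correlations are ages, and the genes were measured in the same libraries with a common sum. The correlations are given as a description.

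The search for like genes covered 2276 genes (mean level 10 TPM or more, SD of the age means 0.25 or more), and those most like S100b over the 9 ages were Calb1 (calbindin, r = 0.98), Stoml3 (0.97) and Sntn, a gene of motile cilia (0.97). Sntn went from 7.53 TPM at P7 to 63.3 at P60, as the ependymal markers did. The genes most like S100a1 were Cys1, Fxyd1, which encodes the sodium pump regulator phospholemman, and Pla1a (0.94 to 0.96), and those most like S100a13 were Enpep, Atp13a5 and P2ry14 (0.93 to 0.96). Atp13a5 and Enpep are known from pericytes. S100a11 was closest to the growth factor gene Mdk (midkine, 0.99), Snrpf and Emp3, S100a10 to Pdgfrl, Kdelr3 and Serpind1 (0.98 to 0.99), S100a6 to Hyi, Bex3 and Agpat4 (0.97 to 0.98) and S100a4 to the ribosomal protein gene Rps18, Fbxw9 and Fbxw17 (0.97 to 0.98). For S100a16, the closest were Med11, Pelo and Ly96 (0.90 to 0.92).

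Within an age the genes also varied from library to library, S100b most visibly. From 3m onwards its range was 115.5 to 286.4 TPM at 3m, 84.5 to 291.8 at 6m, 89.5 to 292.6 at 12m and 142.9 to 276.6 at 18m, whereas at P7 to P60 the highest library was at most 1.33 times the lowest. Libraries low in S100b tended to be high in S100a11. In 12m replicate 3 S100b was 89.5 and S100a11 343.6 TPM, and in 12m replicate 2 they were 292.6 and 130.7 TPM. In 6m replicate 3 they were 291.8 and 99.7 TPM.

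To measure this, each library's deviation from its age mean was correlated over the 34 libraries, in 132 relations of the 8 genes with each other and with 13 marker lists. P-values came from 100000 two-sided permutations within ages, and the relations described were chosen after their values were seen. An adjusted permutation p under 0.05 was reached by 20 of the 132. S100b and S100a11 gave r = -0.69 (permutation p = 0.00608, adjusted 0.0449; rho = -0.57, p = 0.00729, adjusted 0.0495). Without the 2 libraries farthest from the median r was -0.57, and within the high, middle and low ranges of genes listed at 0 it was -0.67, -0.50 and -0.70. S100b and S100a10 gave r = -0.58 (adjusted permutation p = 0.0436), and -0.231, -0.753 and -0.795 within the ranges. S100b and S100a1 gave r = 0.61 (permutation p = 0.00275, adjusted 0.0302; rho = 0.65, p = 0.00071, adjusted 0.0149), 0.56 without the 2 farthest, and 0.20, 0.76 and 0.88 within the ranges.

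S100a11 and S100a10, neighbours in the smaller block, gave r = 0.77 (permutation p = 2e-05, adjusted 0.00088; rho = 0.78, p = 1e-05, adjusted 0.00088). It was 0.71 without the 2 farthest and 0.70, 0.40 and 0.87 within the ranges. S100a4 and S100a6, which lie 6836 bases apart, gave r = 0.76 (permutation p = 7e-05, adjusted 0.00231; rho = 0.72, p = 0.0002, adjusted 0.0066), 0.72 without the 2 farthest and 0.86, 0.80 and 0.65 within the ranges. The facing pair S100a1 and S100a13 gave r = 0.49 (permutation p = 0.0245, adjusted 0.114; rho = 0.54, p = 0.00484, adjusted 0.0426) and 0.58 without the 2 farthest. Within the ranges it was 0.77, 0.88 and -0.09, so it did not hold in the low range of 3m, 6m and 12m replicate 3.

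S100b followed the oligodendrocyte markers, with r = 0.79 (permutation p = 1e-05, the smallest these permutations can give, adjusted 0.00066; rho = 0.81, p = 2e-05, adjusted 0.00088). It was 0.79 without the 2 farthest libraries and 0.62, 0.72 and 0.93 within the ranges. S100b also passed with the neuron markers (r = 0.75, permutation p = 0.00179, adjusted 0.0215; rho = 0.57, p = 0.0075, adjusted 0.0495), at 0.64 without the 2 farthest and 0.49, 0.14 and 0.88 within the ranges. With the microglia markers it gave r = 0.59 (permutation p = 0.00099, adjusted 0.016; rho = 0.55, p = 0.00316, adjusted 0.0321), at 0.62 without the 2 farthest and 0.25, 0.76 and 0.91 within the ranges. With the pericyte and smooth muscle markers r was -0.54 (permutation p = 0.00659, adjusted 0.0449; rho = -0.60, p = 0.00147, adjusted 0.0194), at -0.63 without the 2 farthest and -0.44, -0.69 and -0.61 within the ranges. S100a11 followed the fibroblast markers (r = 0.74, permutation p = 0.00108, adjusted 0.016; rho = 0.65, p = 0.00134, adjusted 0.0194; 0.67 without the 2 farthest) but with r = -0.34 in the middle range. S100a11 ran against the astrocyte markers (r = -0.82, permutation p = 1e-05, adjusted 0.00066; rho = -0.82, p = 2e-05, adjusted 0.00088; -0.77 without the 2 farthest), again not in the middle range (0.21). S100a11 passed with 4 more lists. For the oligodendrocyte markers r was -0.68 (permutation p = 0.00107, adjusted 0.016; rho = -0.61, p = 0.00263, adjusted 0.0316), at -0.61 without the 2 farthest and -0.72, -0.89 and -0.69 within the ranges. For the pericyte and smooth muscle markers r was 0.66 (permutation p = 0.00109, adjusted 0.016; rho = 0.68, p = 0.00096, adjusted 0.0158), at 0.67 without the 2 farthest and 0.53, 0.36 and 0.81 within the ranges. The other two relations did not hold in the high range. With the ependymal markers r was 0.61 (permutation p = 0.00681, adjusted 0.0449; rho = 0.57, p = 0.00555, adjusted 0.0434), at 0.50 without the 2 farthest and -0.02, 0.79 and 0.82 within the ranges. With the choroid plexus markers r was 0.51 (permutation p = 0.00529, adjusted 0.0436; rho = 0.54, p = 0.00303, adjusted 0.0321), at 0.52 without the 2 farthest and 0.19, 0.66 and 0.74 within the ranges. S100a10 passed too with the fibroblast (r = 0.70, adjusted permutation p = 0.00396), astrocyte (-0.65, 0.0215), oligodendrocyte (-0.59, 0.0436) and neuron markers (-0.57, 0.0449). With the astrocyte markers its r was 0.74 in the middle range. S100a1 and the oligodendrocyte precursor markers gave r = -0.565 (adjusted permutation p = 0.0317). By rho, this relation and S100a10 with the neuron markers missed the threshold (adjusted permutation p = 0.0502 and 0.0509). S100a16 reached an adjusted p under 0.05 with no gene and no list. The part of other cell types in the levels of S100b, S100a1, S100a10 and S100a11 was not tested.

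**Figure D3:**
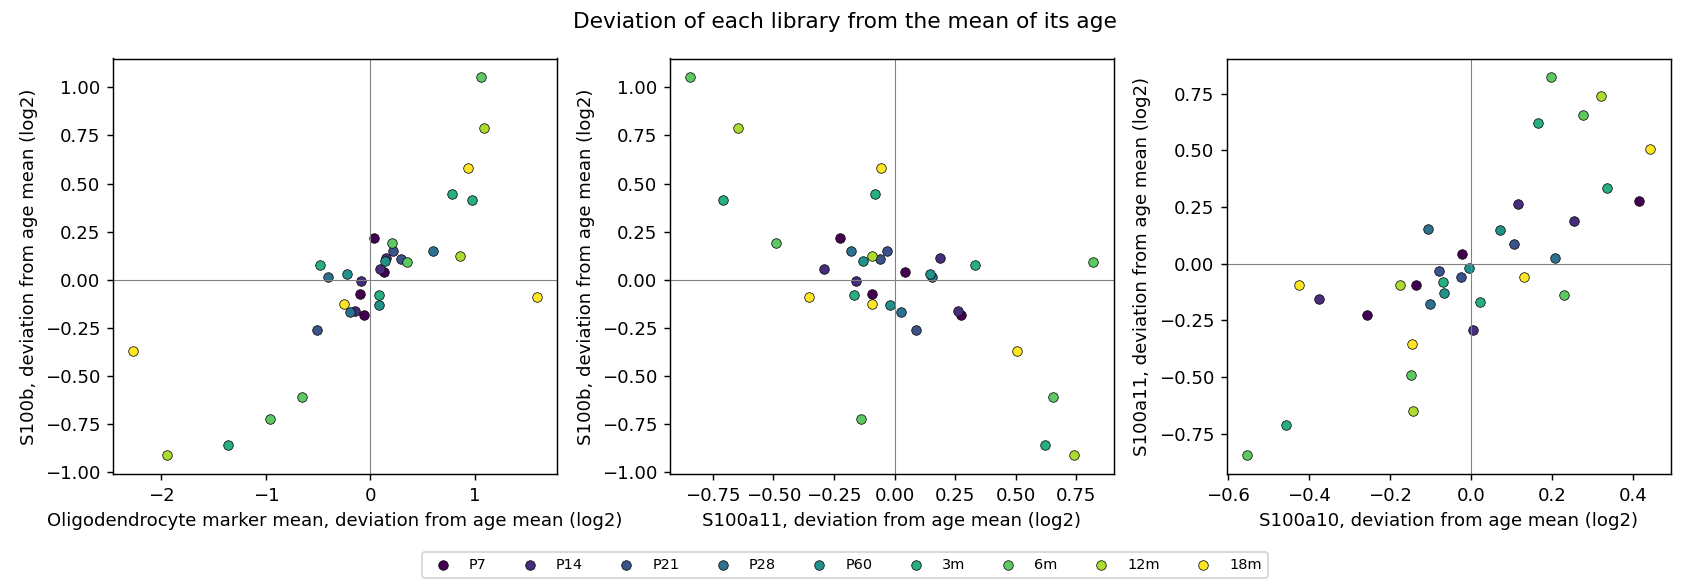
Deviation of each library from the mean of its age, in log2(TPM + 1), for S100b against the mean of the oligodendrocyte markers, S100b against S100a11, and S100a11 against S100a10; colours mark the 9 ages. The widest deviations are in libraries of 3m, 6m, 12m and 18m.

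Partners and receptors of S100 proteins were followed as a list of 37 genes, of which 34 were tested. Between P7 and P60, 9 rose and 15 fell, 70.6% called against 52.8% of all genes, with a median log2 fold change of -0.33. Anxa2, the partner of S100a10, went from 213.3 to 313.3 TPM at P7 to 99 to 141.4 at P60 (log2 fold change -1.22 ± 0.32 SE, limma adjusted p = 0.00307), the direction of S100a10. The level of S100a10 was 0.52 to 1.5 times that of Anxa2 in every library. Of 6 listed genes for channels and a receptor that S100a10 carries to the membrane, 3 were tested, all of them channel genes. All 3 rose, where 19.5% of all genes did, against the direction of S100a10 (median log2 fold change 0.855). Their levels were low, with no mean above 3.97 TPM at P7 or P60. Of the scaffold and cytoskeleton partners 6 of 9 fell and none rose, among them the actin capping gene Capzb (from 317.6 to 217 TPM on average, -0.55 ± 0.10 SE, adjusted p = 0.000181) and the intermediate filament gene Gfap. The tumour suppressor gene Trp53, whose product binds S100b, fell too (57.8 to 34.1 TPM, -0.74 ± 0.15 SE, adjusted p = 0.000331). Ryr2, the ryanodine receptor, rose (0.33 to 1.39 TPM, 0.82 ± 0.16 SE, adjusted p = 0.000287), as did Syt1, a neuronal synaptotagmin gene (2.66 to 10.1 TPM, 1.58 ± 0.31 SE, adjusted p = 0.00029), beside the rise in neuron markers, of which Syt1 is one.

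Between 3m and 18m, 1 of the 34 partner genes rose and 13 fell, 41.2% against 37.5% of all genes. Fgf1, the cargo of S100a13, fell from 48.4 to 29 TPM (log2 fold change -0.73 ± 0.15 SE, limma adjusted p = 0.000682). Ryr2 fell from 1.52 to 0.39 TPM (-0.86 ± 0.14 SE, adjusted p = 6.58e-05), Syt1 from 10.6 to 3.51 TPM (-1.32 ± 0.27 SE, adjusted p = 0.000586) and Scn10a, a sodium channel gene whose product S100a10 carries to the membrane, from 0.77 to 0.0098 TPM (-0.79 ± 0.22 SE, adjusted p = 0.00547). Neuron markers fell as well there, 6 of 9. Scn10a levels also went with the ranges of genes listed at 0 that this comparison crosses: it was at most 0.043 TPM at P7, P14 and 18m, 0.31 to 1.77 TPM from P21 to 6m, and 0 to 1.47 TPM at 12m, the age with libraries in 2 of the ranges. Between P7 and 18m, 2 partner genes rose and 8 fell, 29.4% called, a share close to the 29.6% of all genes. Asic1, an acid-sensing channel gene, rose (1.72 to 5.52 TPM, 1.17 ± 0.26 SE, adjusted p = 0.0014). Alcam (67.8 to 36.1 TPM, -0.94 ± 0.21 SE, adjusted p = 0.00159), the calcyclin-binding protein gene Cacybp (109.1 to 72.8 TPM, -0.58 ± 0.14 SE, adjusted p = 0.0031) and Sugt1 (82.8 to 58.7 TPM, -0.49 ± 0.13 SE, adjusted p = 0.00633) fell. Ager, which encodes the receptor RAGE for S100b, was 2.10 to 6.90 TPM in all libraries. It rose from P7 (2.33 to 4.22 TPM) to P60 (4.78 to 6.19 TPM) without overlap (0.62 ± 0.21 SE on the log2 scale, limma adjusted p = 0.0182) and was called in neither of the comparisons with 18m.

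The other 10 S100 genes of the table were far lower in most libraries. S100a14, S100g, S100z and S100a7l2 did not pass the filter, and S100a2, S100a3, S100a7a, S100a8, S100a9 and S100a5 did. S100a3, which lies next to S100a4 and also shares exonic bases with Gm42674, was 1.86 to 8.02 TPM, and S100a2 at most 1.26. S100a2 was lower at P60 than at P7 (0.44 and 1.14 TPM, log2 fold change -0.57 ± 0.20 SE, limma adjusted p = 0.0167). S100a7a was lower at 18m than at 3m (1.17 and 2.51 TPM, -0.77 ± 0.26 SE, adjusted p = 0.0182). S100a8 and S100a9, the calprotectin subunits of neutrophils, were each at most 6.89 TPM outside P7 replicates 1 and 2 and 18m replicate 1, and passed in none of these comparisons.

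S100a5, a gene of olfactory sensory neurons that lies between S100a4 and S100a6, was listed at 0 in 23 of 34 libraries. It was 146.7 TPM in P60 replicate 2, 98.2 in 3m replicate 5, 33.6 in 6m replicate 1 and 24.9 in 3m replicate 4, and at most 3.13 in the others. Omp, the marker of mature olfactory neurons, was 7.19, 4.94, 4.34 and 2.55 TPM in the same 4 libraries and at most 0.40 in the other 30. Its neighbours did not stand apart there: in P60 replicate 2, S100a4 was 41.3 TPM, against 41.2 and 42.2 in the other P60 libraries, and S100a6 was 427.9 TPM, against 402 and 392.2. Of the 5 olfactory genes looked at, Omp alone separated these 4 libraries. Gng13, Stoml3, Cnga2 and Gng8 did not: in 6m replicate 1, for example, Gng13 was 9.99 and Stoml3 3.14 TPM, within the ranges of 2.10 to 362.7 and 2.34 to 39.4 TPM in the other 30 libraries. Cnga2 was at most 0.45 TPM in any library. The 5 genes were chosen after the S100a5 values were seen, and a part of olfactory tissue in these libraries was not tested.

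**Figure D4:**
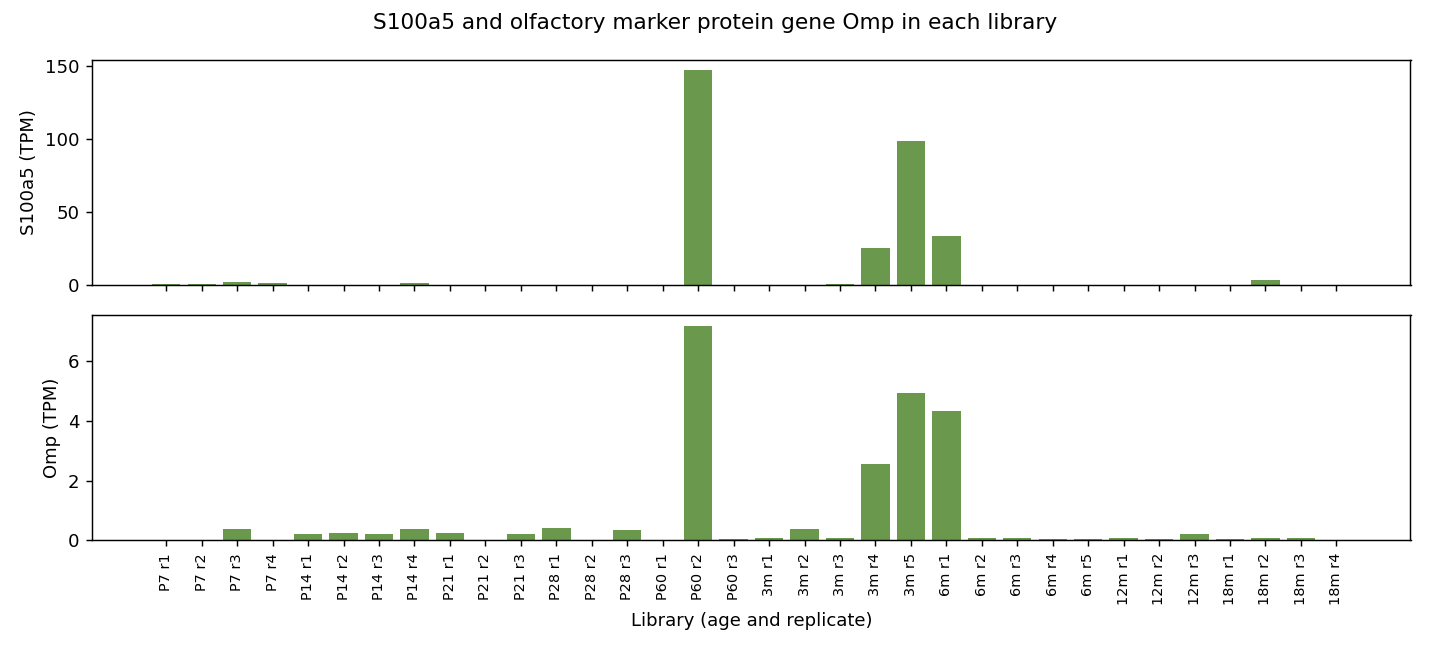
TPM of S100a5 (top) and of the olfactory marker gene Omp (bottom) in each of the 34 libraries, as bars from 0. The same 4 libraries, P60 replicate 2, 3m replicates 4 and 5 and 6m replicate 1, hold the high values of both genes.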

How the data were processed

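Values are TPM, made by the authors and deposited as 1 table with a column per library. Tools listed per the submitters' processing notes are DESeq2 1.36.0, RSEM 1.2.28, Trim Galore 0.6.4 and STAR 2.7.1a. The build is mm10, and the role of each tool is not given. Per the labels' protocols, cDNA came from a low-input template-switching kit with polyA enrichment. A gene without values in any library (1 row) was left out. TPM are shares, so a change in abundant transcripts moves all others, and depth is unknown.

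From the deposited TPM, log2(TPM + 1) was computed, which understates changes of low genes. The 14590 genes that reached 1 TPM in 3 or more libraries entered 1 limma 3.58.1 model in R 4.3.3 (1 mean per age, 34 libraries, trend and robust empirical Bayes with statmod 1.5.0, two-sided). Benjamini-Hochberg adjustment ran over all genes tested, with calls at an adjusted p under 0.05. "Rose" and "fell" mean called. Folds are ratios of mean TPM. The method was tested on simulated data.

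The 8 genes and all lists were chosen with earlier results of these data known. Named were the 8 genes, the other S100 genes, from the partner list Anxa2, Gfap, Ager and the 4 genes of smallest p in each of 3 comparisons, and the 3 genes most like each member. Anxa2, Gfap and Ager were named outside that rule, after their values were seen. Alternatives were quantile normalization, median-of-ratios rescaling, no filter or 5 TPM as the filter, a smaller pseudocount (0.1), a replicate block, marker-list covariates, a term for genes at 0, only the ages compared, another young adult age, and leaving out each library. Chosen after the data were seen were fits within 1 range of genes at 0 and all within-age correlations with their alternatives. Positions came from GENCODE M21 (GRCm38). Figures used matplotlib 3.10.9, with pandas 2.3.3 in Python 3.11.15.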

Additional observations from a re-analysis of the deposited data

Results flagged for a closer look

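A library far from the others of its age was looked for in 70 groups of 4 or 5 libraries, and 8 stood apart. The cutoff gives about 1 in 20 by chance only for normally distributed values. For S100a5 at P14, 6m and 18m and S100a8 at 18m all other libraries were at 0. Any value above 0 is flagged there, so the count of 8 cannot be set against that rate. None concerned the 8 genes described, and all lay in the less abundant S100 genes. S100a5 stood apart in P14 replicate 4 (1.39 TPM), 3m replicate 5 (98.2 TPM), 6m replicate 1 (33.6 TPM) and 18m replicate 2 (3.13 TPM). S100a8 and S100a9 did in 18m replicate 1 (16.5 and 20.5 TPM), where of the 7 neutrophil markers Ly6g was 0.36 TPM, Retnlg 2.13 TPM and the other 5 were at 0, while the whole list summed to 0.055 to 11.9 TPM over the libraries of 18m. S100a9 also did in P14 replicate 3 (3.72 TPM) and S100a7a in 6m replicate 3 (3.20 TPM).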

How the results depend on the processing

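No called value changed sign under the alternatives. The count of S100 genes called at P60 vs P7 went from 7 to 2 with neuron and oligodendrocyte covariates and to 2 with endothelial and fibroblast covariates, and at 18m vs P7 from 3 to 1 with the latter. For 18m vs 3m, 0 became 4 after rescaling, 2 after quantile normalization, 1 with neuron and oligodendrocyte covariates, 1 with endothelial and fibroblast covariates, 2 when only the 2 ages entered the fit and 3 with 6m in place of 3m. Over the neighbouring steps, 9 became 5 with endothelial and fibroblast covariates and 15 when only the ages of a step entered its fit. The cause was not tested.

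Leaving out 1 library at a time gave 6 to 7 genes at P60 vs P7, 0 to 1 at 18m vs 3m (1, S100a10 lower, without 3m replicate 2 or 18m replicate 1), 2 to 4 at 18m vs P7, 7 to 8 over the 9 ages, and 6 to 14 steps (14 without 6m replicate 4). Replicate numbers did not pair libraries: the mean correlation of deviations was 0.0023 over 119 pairs with the same number and -0.0003 over 392 others, and 8 of 34 libraries correlated best with their own number. A replicate block gave 1 call in place of 0 at 18m vs 3m (S100a13, 0.26, limma adjusted p = 0.0459) and put S100a10 lower at 18m vs P7 (-0.48, adjusted p = 0.0409).

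Over all genes, calls at P60 vs P7 went from 7697 to 3492 and 3548 with the covariates. At 18m vs 3m they went from 5476 to 297 with a term for genes at 0, to 2968 with 6m and 2010 with P60 in place of 3m, and to 3471 without 18m replicate 1. At 18m vs P7 they went from 4316 to 2739 after quantile normalization and 2420 with endothelial and fibroblast covariates. The share higher among calls went from 36.9% to 56.9% (P60 vs P7) and from 15.8% to 54.4% (18m vs P7) after rescaling.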
